A study of Saccharomyces cerevisiae with 8 samples.

Results

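Transcription in a yeast mutant lacking Cac1 was set against wild type by native elongating transcript sequencing (NET-seq), which reads the RNA still held by RNA polymerase II. The comparison used 4 of the 8 libraries of the series, chosen by their titles: 2 biological replicates of cac1 and 2 of wild type. Both groups of Saccharomyces cerevisiae carried a FLAG-tagged Rpb3 subunit and were grown to mid-log phase in YPD, a rich glucose medium. The mutant was strain YSB3062 Rpb3-FLAG cac1Δ and the wild type was strain YSC0001 Rpb3-FLAG. The strain names come from different numbering series, and what else differs between the strains is not stated in the labels, so genotype and strain background cannot be told apart in any value below. The other 4 libraries, of the cac2 and cac3 mutants, entered the estimate of the spread and are compared only at the end.

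Chromatin assembly factor I (CAF-I) is a histone chaperone that places histones H3 and H4 on newly copied DNA, and Cac1 is its large subunit. Many yeast promoters sit in a nucleosome-free gap from which polymerase can start in both directions, toward the gene and away from it. Much of the transcription away from genes appears as cryptic unstable transcripts (CUTs), which the nuclear exosome destroys, or as stable unannotated transcripts (SUTs), and the rest has no annotation. Assays that count stable RNA miss most of it, whereas NET-seq reads it before it is degraded.

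Reads were counted by the authors on 7272 features of 4 types, namely 5171 coding transcripts (ORF-Ts), 925 CUTs, 847 SUTs and 329 others. A second count covered a window on the opposite strand at each feature's 5′ end, from 500 bp upstream to 100 bp inside. In 5167 of the 5498 features of the coding table its width equalled 100 bp plus the distance to the next upstream feature of that table, with at most 500 bp of distance, so windows were 104 to 600 bp wide with a median of 332 bp. Reads on features numbered 1959549 and 4679697 in cac1, against 1880299 and 7705151 in wild type. Levels are given as RPKM, reads corrected for feature length and for each library's scaled total of feature reads, and changes as log2 of cac1 over wild type with the standard error (SE). A feature "rose" or "fell" when the quasi-likelihood test of edgeR gave an adjusted p under 0.05 over all features tested; by that measure 786 features rose (10.8%) and 609 fell (8.38%).

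The deleted gene was lower in both mutant libraries. RLF2, the gene for Cac1 (systematic name YPR018W, plus strand of chromosome XVI between 594355 and 596379), stood at 14.1 and 13.5 RPKM in the cac1 libraries, against 38.9 and 37.4 RPKM in the wild-type libraries. The groups did not overlap, and RLF2 fell by 1.47 on the log2 scale (SE 0.10, edgeR adjusted p = 1.27e-05). The 188 reads left on it in cac1 were not placed within the gene by these counts, so whether they lie in a part that the deletion spared was not tested. Its neighbours DSS4 and CDC54 changed by -0.14 (adjusted p = 0.355) and 0.16 (adjusted p = 0.249) on the log2 scale by the same edgeR test. Among the other CAF-I subunits, CAC2 was at 76.5 and 69.0 RPKM in cac1 and 65.0 and 57.0 RPKM in wild type, a log2 change of 0.27 that missed the threshold (SE 0.09, edgeR adjusted p = 0.0509). It passed without wild-type replicate 1 (0.34, edgeR adjusted p = 0.0421). MSI1, the gene for Cac3, changed by 0.11 on the log2 scale (SE 0.07, edgeR adjusted p = 0.356).

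Among coding genes, rises lay mostly at weakly transcribed genes and falls mostly at strongly transcribed ones. Of 5171 ORF-Ts tested, 507 rose (9.80%) and 416 fell (8.04%), while the median log2 change was 0.0044. When ORF-Ts were divided into 5 equal classes by their mean level over the 4 libraries, 277 of 1035 in the lowest class rose and 9 fell, with a median log2 change of 0.22. In the highest class 33 of 1034 rose and 264 fell, with a median of -0.11. The median level of the lowest class was 24.23 and 24.24 RPKM in cac1, above the 20.98 and 20.88 RPKM of both wild-type libraries. That of the highest class was 190.8 and 189.4 RPKM in cac1, below the 198.7 and 202.8 RPKM of both wild-type libraries. By length, 153 of 1035 ORF-Ts in the shortest of 5 length classes (up to 936 bp) fell, and 36 of 1034 in the longest. How level and length relate in these genes, and the part of each, was not tested. Many calls needed wild-type replicate 2, the deepest library: 105 ORF-Ts rose and 68 fell without wild-type replicate 2, 319 and 208 without cac1 replicate 1, and 234 fell without wild-type replicate 1. All 507 and all 416 kept their direction without wild-type replicate 2. The median change of the 507 was 0.54 then, against 0.56 with it. These genes were chosen by the fit of all libraries, and the refit shares most of them, so this is no independent check. With libraries scaled to total ORF-T reads alone, 747 rose and 222 fell.

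**Figure D1:**
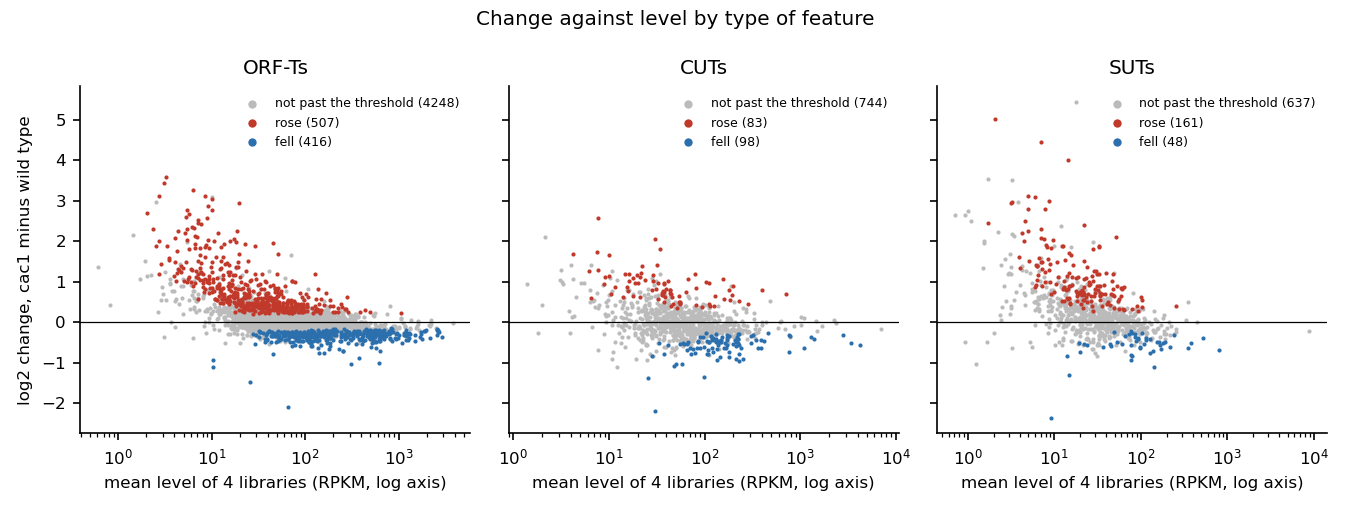
Each point is a feature, placed by its mean RPKM over the 4 cac1 and wild-type libraries (log axis) and its log2 change, cac1 minus wild type, with features that rose in red and that fell in blue. Among ORF-Ts the 507 rises gather at low levels and the 416 falls at high levels, and among SUTs the 161 rises outnumber the 48 falls.

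Among ORF-Ts with a mean level of at least 5 RPKM over the 4 libraries, the level from which genes were named, those that rose most were at low levels in wild type. IME4 and POT1, with lower means, rose by more (3.59 and 3.43 on the log2 scale) and are described with their windows. CAT2, for carnitine acetyltransferase (YML042W, 1 of its 2 features, plus strand of chromosome XIII between 192689 and 193641), had 16.8 and 13.8 RPKM in cac1, against 1.14 and 1.84 RPKM in wild type. STE3, which encodes the receptor for a-factor (YKL178C, minus strand of chromosome XI between 112896 and 114888), had 19.1 and 16.8 RPKM in cac1, against 2.998 and 1.892 RPKM in wild type. YNR064C (minus strand of chromosome XIV between 748904 and 750032) had 8.41 and 14.2 RPKM in cac1, against 1.44 and 1.19 RPKM in wild type. For each of these genes both cac1 libraries lay above both wild-type libraries, as the rule for naming genes required. The log2 changes were 3.12 for CAT2 (SE 0.40, edgeR adjusted p = 0.000775), 3.04 for STE3 (SE 0.22, edgeR adjusted p = 2.53e-05) and 3.26 for YNR064C (SE 0.39, edgeR adjusted p = 0.000481). YHL012W followed with 34.8 and 33.3 RPKM in cac1, against 6.53 and 3.72 RPKM in wild type, a log2 change of 2.95 (SE 0.23).

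The other 8 ORF-Ts named for their rise were also at low levels in wild type. SPS19, a peroxisomal reductase of unsaturated fatty acid oxidation, had 17.2 and 13.4 RPKM in cac1, against 4.52 and 1.28 RPKM in wild type. YSW1, a gene of spore formation, had 8.79 and 10.5 RPKM in cac1, against 1.91 and 1.42 RPKM in wild type. PDC6, the minor pyruvate decarboxylase, had 10.7 and 7.60 RPKM in cac1, against 2.72 and 0.865 RPKM in wild type. Their log2 changes were 2.88, 2.68 and 2.76, in that order. A feature that joins YBR116C with TKL2, the minor transketolase, rose by 2.56 (SE 0.20), and PES4, YNR062C and the joined feature of YFR012W and YFR012W-A rose by 2.61, 2.53 and 2.44. MF(ALPHA)2, for the pheromone alpha-factor, had 8 and 8 reads in cac1 and 1 and 2 in wild type, a pooled ratio of 7.28 with an exact 95% counting interval of 2.08 to 39.0. Several calls needed wild-type replicate 2: without it, edgeR adjusted p-values were 0.0874 for SPS19, 0.164 for PDC6, 0.123 for PES4, 0.154 for YNR062C, 0.0878 for the YFR012W feature and 0.319 for MF(ALPHA)2. That of MF(ALPHA)2 was 0.0664 without cac1 replicate 1 and 0.109 by DESeq2.

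The named falls were smaller than the named rises, and genes of metabolism were among them. PHO84, the high-affinity phosphate transporter (YML123C, minus strand of chromosome XIII between 23941 and 25853), had 21.4 and 26.9 RPKM in cac1, against 101.9 and 110.6 RPKM in wild type. It fell by 2.11 on the log2 scale (SE 0.10, edgeR adjusted p = 1.19e-06), the largest fall among the ORF-Ts named by the rule. RIB4, for lumazine synthase of riboflavin synthesis, had 189.7 and 211.7 RPKM in cac1, against 433.4 and 395.1 RPKM in wild type. MDH2, the cytosolic malate dehydrogenase, had 265.1 and 260.7 RPKM in cac1, against 491.9 and 485.3 RPKM in wild type. RIB4 fell by 1.04 (SE 0.08) and MDH2 by 0.89 (SE 0.06). TDH2, for glyceraldehyde-3-phosphate dehydrogenase, fell by 0.72 (SE 0.06), and PCL5, a cyclin, by 0.75 (SE 0.08). RPI1 fell by 0.76 (SE 0.10). Of the weakly transcribed genes, IME1, the inducer of meiosis, had 6.81 and 7.19 RPKM in cac1 and 14.4 and 13.3 RPKM in wild type, SSP1 fell by 1.12, and NEJ1 fell by 0.79. Some of these calls rested on single libraries: without wild-type replicate 2 the edgeR adjusted p was 0.0898 for IME1, 0.266 for SSP1 and 0.0512 for NEJ1. Without cac1 replicate 2 it was 0.0632 for IME1 and 0.157 for SSP1, without cac1 replicate 1 it was 0.0534 for SSP1, and DESeq2 gave 0.0622 and 0.17 for IME1 and SSP1.

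**Figure D2:**
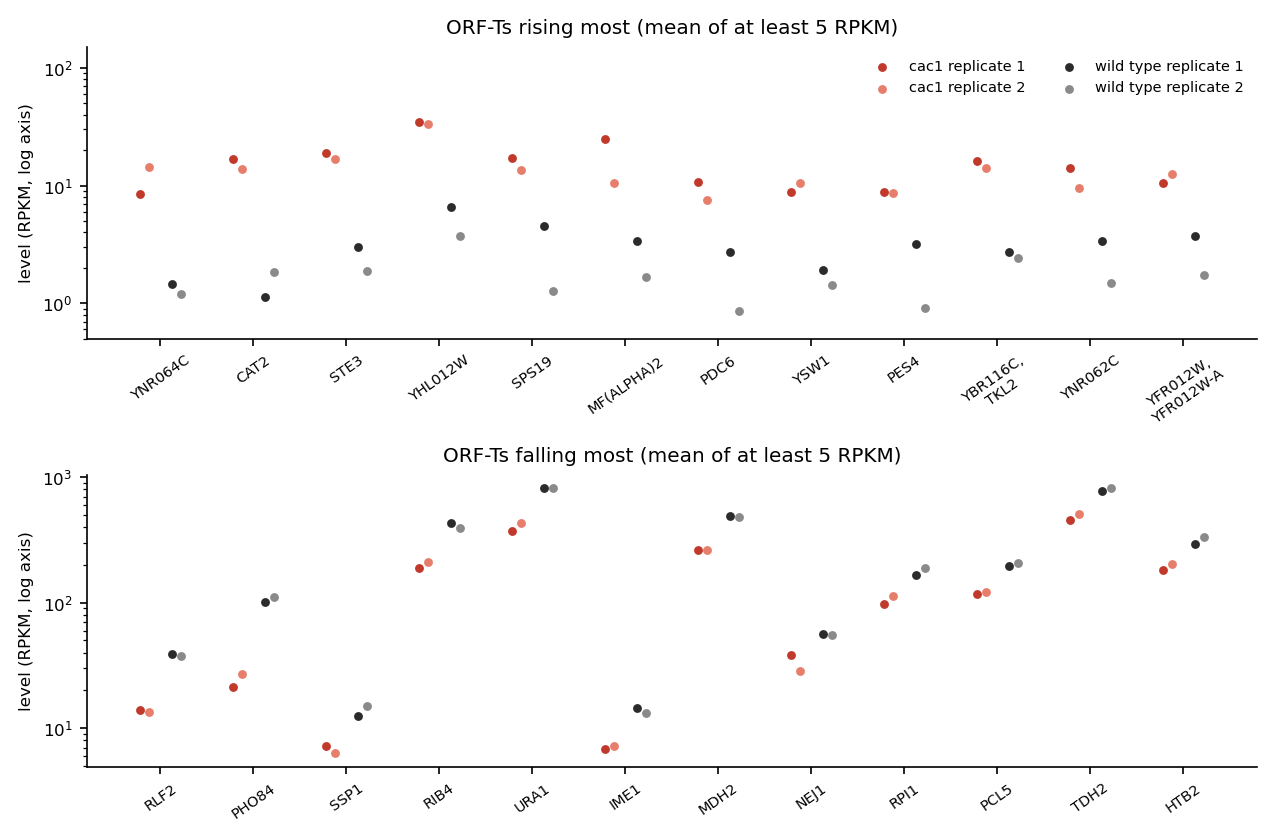
Points give the level in each library (RPKM, log axis) of the 12 ORF-Ts rising most and the 12 falling most among those with a mean of at least 5 RPKM, cac1 left of wild type for each gene. Both cac1 points lie on one side of both wild-type points for every gene shown, as the naming rule requires, with PHO84 and RLF2 the farthest apart among those that fell.

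Genes of the cytosolic ribosome fell by a small amount. Of 131 cytosolic ribosomal protein genes, 103 fell, against 8.04% of all ORF-Ts. Their median log2 change was -0.28, against 0.0044 for all ORF-Ts. In the highest level class of ORF-Ts 264 of 1034 fell, with a median of -0.11. The part of the level in the falls of these lists was not tested. RPS9A had 826.8 and 968.4 RPKM in cac1 and 1193 and 1375 RPKM in wild type, a log2 change of -0.52 (SE 0.10). RPL26B had 445.7 and 505.5 RPKM in cac1 and 666.9 and 666.4 RPKM in wild type, a log2 change of -0.48 (SE 0.07). Of 13 translation factors 4 fell (TEF2, TIF2, EFT2 and SUI1), with a median of -0.21. Of 70 mitochondrial ribosomal protein genes 8 fell (11.4%, near the share of all ORF-Ts), with a median of -0.14, and of 42 genes of ribosome biogenesis 4 fell (9.52%), with a median of -0.05. With libraries scaled to total ORF-T reads alone, 3 mitochondrial genes, 1 translation factor and no biogenesis gene fell, while 2 biogenesis genes rose and their median was 0.0067. Many of these genes have near-identical copies between which the authors' counting may have split reads, so single members are uncertain. The cytosolic count was 25 without wild-type replicate 2 and 66 without cac1 replicate 1. The mitochondrial count was 1 to 4 with any 1 of the 4 libraries left out, and the biogenesis count was 0 to 5. Among translation factors 1 call was left without cac1 replicate 1, 2 were left without wild-type replicate 1, and all 4 were lost without wild-type replicate 2.

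Histone genes fell as well. Of 11 genes for core, variant and linker histones 8 fell (72.7%, against 8.04% of all ORF-Ts), with a median log2 change of -0.33. In the highest level class of ORF-Ts 264 of 1034 fell, and the part of the level was not tested. Summed over the list, the level was 3944 and 3925 RPKM in cac1, against 4991 in both wild-type libraries. HTB2, a gene for histone H2B, had 181.3 and 204.8 RPKM in cac1 and 294.7 and 336.4 RPKM in wild type (log2 change -0.71, SE 0.08, edgeR adjusted p = 0.000481). HTA2, a gene for H2A, changed by -0.60 (SE 0.08), and HTZ1, for the variant H2A.Z, by -0.47 (SE 0.06). The count was 4 without wild-type replicate 2 and 5 without cac1 replicate 2. Among 27 genes of G1 and S phase CLN1 and CLB6 fell (7.41%, near the share of all ORF-Ts), and among 20 of G2 and M phase CLB1, CLB2 and CLB3 fell (15%). Without wild-type replicate 2 the counts were 0 and 1.

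Pyrimidine synthesis, glycolysis and amino acid synthesis held further falls, to be read beside the 8.04% of all ORF-Ts that fell and the 9.80% that rose. In the highest level class of ORF-Ts 264 of 1034 fell, and the part of the level was not tested. In the pyrimidine list 6 of 11 fell (54.5%), with a median of -0.29, and its summed level was 1675 and 1773 RPKM in cac1, against 2464 and 2510 RPKM in wild type. URA1, the dihydroorotate dehydrogenase, had 374.8 and 433.2 RPKM in cac1 and 816.9 and 818.4 RPKM in wild type (log2 change -1.01, SE 0.07, edgeR adjusted p = 1.27e-05). URA4 changed by -0.70 (SE 0.07) and FUI1, the uridine permease, by -0.66 (SE 0.06). Of 20 glycolysis and fermentation genes, 10 fell (50%), among them ENO1 (-0.58), and 3 rose (15%), namely PDC6, ADH2 (1.502, SE 0.20) and PYK2 (0.64, SE 0.15). Of 46 amino acid genes under Gcn4, 15 fell (32.6%), with a median of -0.08, including GLN1, the glutamine synthetase, at -0.45 (SE 0.05), and GCN4 itself at -0.38 (SE 0.07). Scaled to total ORF-T reads alone, 6 glycolysis genes and 7 amino acid genes fell, the amino acid list with a median of -0.03. Leaving out wild-type replicate 2 left 5 falls for pyrimidines, 2 for glycolysis and 2 for amino acids. Leaving out any other library left 6 falls for glycolysis, and 9, 7 and 6 for amino acids without cac1 replicate 1, cac1 replicate 2 and wild-type replicate 1.

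Genes of sporulation, meiosis and galactose use, which rich glucose medium is known to keep low, were called as risen at a larger share than the 9.80% of all ORF-Ts; in the lowest level class of ORF-Ts that share was 277 of 1035, and the part of the level was not tested. In the list of middle and late sporulation 13 of 18 rose (72.2%) and 1, SSP1, fell, with a median log2 change of 1.44, and the summed level was 284.5 and 289.7 RPKM in cac1, against 167.3 and 153.1 RPKM in wild type. OSW2, a spore wall gene, had 10.8 and 9.17 RPKM in cac1 and 2.81 and 1.62 RPKM in wild type, a log2 change of 2.35 (SE 0.34). Of 20 genes of early meiosis 7 rose (35%), with a median of 0.45; RIM4 and the recombinase gene DMC1 rose by 1.60 and 2.12, and IME1 fell. In the galactose list 4 of 7 (57.1%) rose (GAL2, GAL3, GAL4 and GAL80), GAL2 with 8.48 and 8.26 RPKM in cac1, against 3.07 and 1.71 RPKM in wild type. Without wild-type replicate 2, 3 sporulation genes, 1 meiosis gene and 1 galactose gene rose, and 4 meiosis genes rose without cac1 replicate 2.

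Lists of fatty acid oxidation, stress and purine genes held rises too, again beside 9.80% of all ORF-Ts that rose and 8.04% that fell. In the lowest level class of ORF-Ts 277 of 1035 rose, and the part of the level was not tested. For 23 listed genes of peroxisomes and fatty acid oxidation, 12 of 27 features rose (44.4%), with a median of 0.38. A gene with several features was counted once for each. CRC1, the mitochondrial carnitine carrier, had 12.1 and 13.7 RPKM in cac1 and 2.12 and 2.52 RPKM in wild type, a log2 change of 2.42 (SE 0.25). Of 31 genes of general stress and storage carbohydrate 13 rose (41.9%) and 1, YGP1, fell, with a median of 0.34; GSY1, a glycogen synthase, had 19.8 and 16.3 RPKM in cac1, against 6.42 and 7.22 RPKM in wild type. Of 24 heat shock chaperones 6 rose (25%), SSA4 by 0.92 (SE 0.13) and HSP82 by 0.70 (SE 0.10). In the purine and one-carbon list 7 of 16 rose (43.8%), with a median of 0.24, and ADE17 had 189.7 and 159.2 RPKM in cac1 and 103.3 and 94.99 RPKM in wild type. Of 14 DNA damage genes 6 rose (42.9%), among them the ribonucleotide reductase genes RNR2 (0.45) and RNR4 (0.44), and RNR1 fell (-0.17). Of 26 nitrogen genes 10 rose (38.5%) and MEP3 fell, with a median of 0.17. For 27 listed genes of the tricarboxylic acid and glyoxylate cycle, 9 of 28 features rose (32.1%) and MDH2 fell. The median of that list was 0.22. Scaled to total ORF-T reads alone, 12 heat shock and 11 purine genes rose. With wild-type replicate 2 left out the rises were 2 for fatty acid oxidation, 5 for stress, 4 for heat shock, 3 for purines, 2 for DNA damage, and 1 each for nitrogen and the tricarboxylic acid cycle. DNA damage gave 3 rises without cac1 replicate 1, the tricarboxylic acid cycle 4 without either cac1 library, and nitrogen 4 and 6 without cac1 replicate 1 and wild-type replicate 1.

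Of the mating-type genes, 2 specific to alpha cells rose at low levels and 1 specific to a cells fell at a high level. Among 5 alpha-specific genes STE3 and MF(ALPHA)2 rose (with any 1 of the 4 libraries left out, 1 to 3 rose, the lowest without cac1 replicate 1 or wild-type replicate 2), and the list's summed level was 111.8 and 84.9 RPKM in cac1, against 70.8 and 50.1 RPKM in wild type. STE2, the alpha-factor receptor of a cells, had 500 and 472.5 RPKM in cac1 and 599.8 and 609.2 RPKM in wild type, a log2 change of -0.32 (SE 0.05), and was the 1 called of 6 a-specific genes, whose median was -0.06. In the list of haploid and pheromone response 2 of 13 rose (15.4%), namely PRM2 by 2.33 (SE 0.28) and AGA1 by 1.02 (SE 0.08), both induced by pheromone, and GPA1 fell, with a median of 0.04; scaled to total ORF-T reads alone, 5 rose. Among phosphate genes 5 of 24 fell (20.8%), with PHO84 first, and 4 rose (16.7%), led by PHM7 (1.35) and PHM6 (1.18); without wild-type replicate 2, 3 fell and 1 rose, and without cac1 replicate 1, 2 rose. Of 18 members of subtelomeric families 4 rose (22.2%; 1 without wild-type replicate 2 or without cac1 replicate 2), and of all 143 ORF-Ts within 20 kb of the last feature of a chromosome 26 rose and 4 fell, with a median of 0.08, beside 9.80% and 8.04% of all ORF-Ts.

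**Figure D3:**
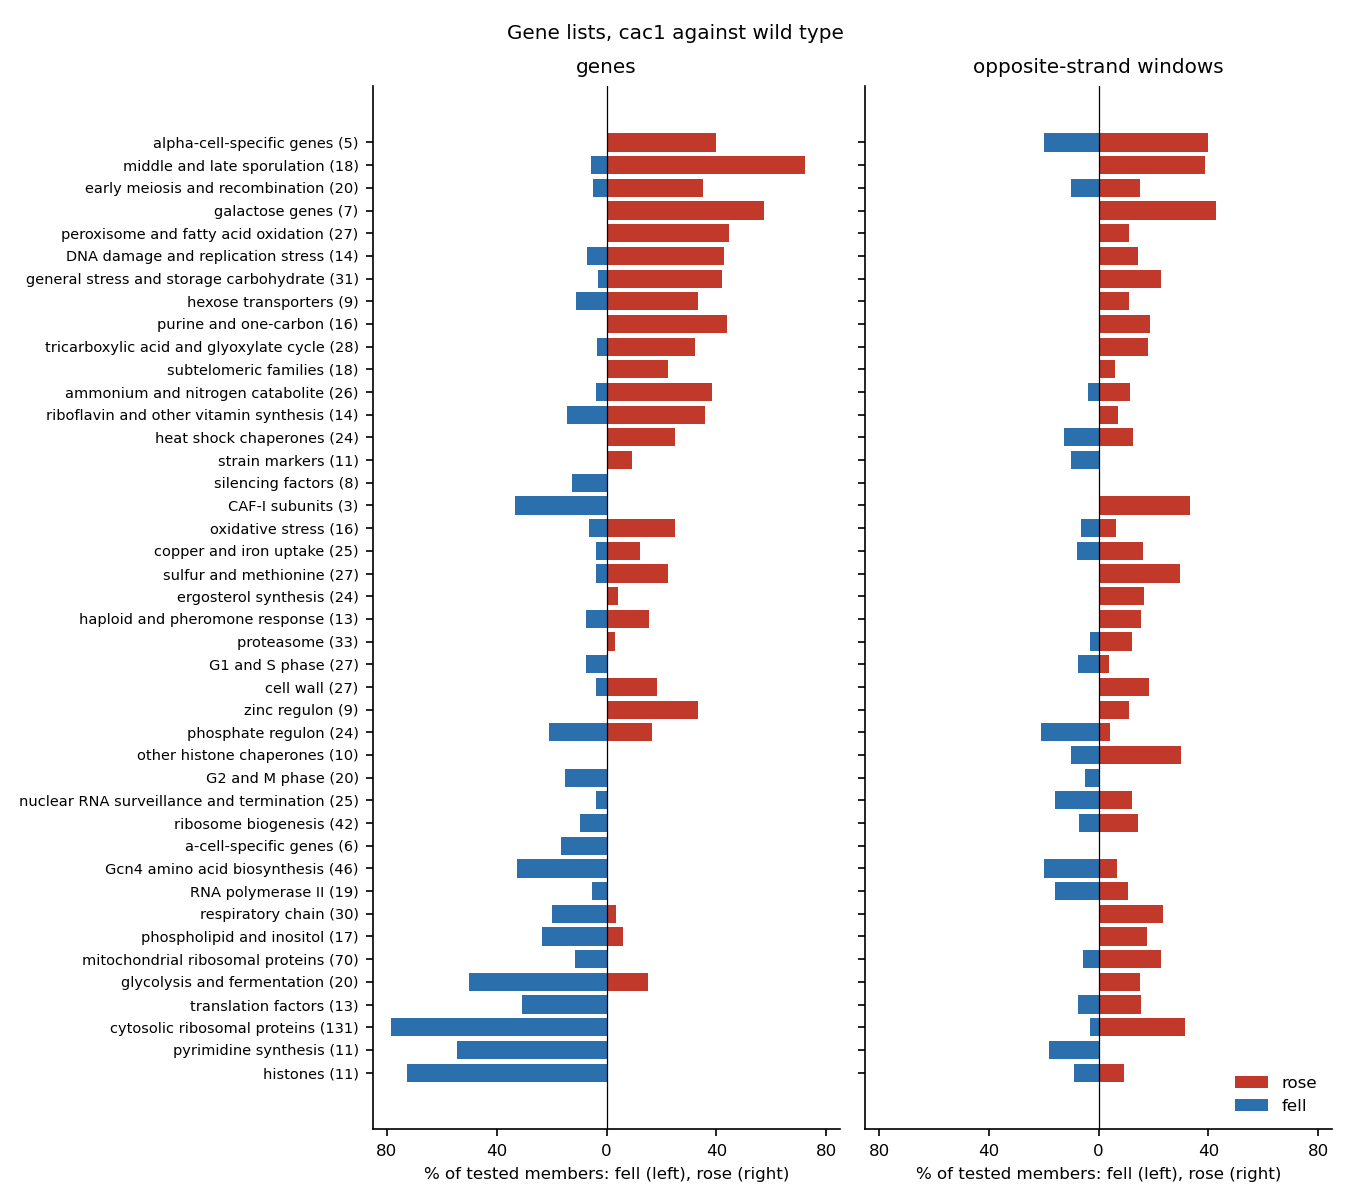
Bars give the percent of tested members of each of 42 gene lists that rose (right, red) and fell (left, blue). Genes are in the left panel and their opposite-strand windows in the right. Lists are sorted by the median log2 change of the genes, with the number of ORF-T features tested in parentheses. Histone, pyrimidine and cytosolic ribosomal protein genes stand at the foot with 8 of 11, 6 of 11 and 103 of 131 members fallen, and 13 of 18 sporulation genes rose near the top.

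Noncoding transcripts did not move as 1 class. Of 925 CUTs 83 rose (8.97%) and 98 fell (10.6%), with a median log2 change of -0.05, and of 846 SUTs tested 161 rose (19.0%) and 48 fell (5.67%), with a median of 0.21. CUTs held 3.59% and 3.77% of reads in cac1, against 3.69% and 3.85% in wild type, and the groups overlapped. SUTs held 3.17% and 3.10% in cac1, against 2.83% and 2.80% in wild type, without overlap, and the median SUT level was 30 and 29.5 RPKM in cac1, against 25.1 and 24.6 RPKM in wild type. With 2 libraries against 2, an exact two-sided permutation test cannot give a p below 0.333. As among ORF-Ts, rises lay at low levels: in the lowest of 5 level classes of SUTs 47 of 169 rose and 1 fell, and in the highest 10 of 170 rose and 36 fell. The CUT median changed sign, to 0.0084, and 101 CUTs rose and 73 fell, with libraries scaled to total ORF-T reads alone. Leaving out wild-type replicate 2, 5 CUTs rose and 15 fell, and 27 SUTs rose and 8 fell. Without cac1 replicate 2, 36 CUTs rose and 57 fell, and 85 SUTs rose and 30 fell. Without cac1 replicate 1, 56 CUTs fell, and 101 SUTs rose and 25 fell; without wild-type replicate 1, 52 CUTs rose.

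The counts differed by position relative to coding genes. A divergent transcript that also lay across another coding gene was counted as divergent alone. Of 470 CUTs divergent from a coding gene 33 rose and 68 fell, with a median of -0.14, and of 241 CUTs antisense to one 36 rose and 15 fell, with a median of 0.10. Of 419 divergent SUTs 66 rose and 29 fell, with a median of 0.10, and of 220 antisense SUTs 66 rose and 8 fell, with a median of 0.42. Antisense SUTs held 0.795% and 0.778% of reads in cac1, above the 0.632% and 0.624% of both wild-type libraries. Divergent CUTs held 1.88% and 1.90% in cac1, below the 1.97% and 2.02% of both wild-type libraries. Without wild-type replicate 2 the counts were 15 risen antisense SUTs, 7 risen divergent SUTs, 3 risen antisense CUTs and 12 fallen divergent CUTs. They were 33, 37, 13 and 38 in the same order without cac1 replicate 2, while divergent SUTs gave 38 rises and divergent CUTs 38 falls without cac1 replicate 1, and divergent SUTs gave 41 rises without wild-type replicate 1. DESeq2 gave 29 risen antisense SUTs, 32 risen divergent SUTs, 20 risen antisense CUTs and 30 fallen divergent CUTs, and the fit of the 4 libraries 23 risen antisense CUTs. Of the 1774 opposite-strand windows of the noncoding table, 2 of them at ORF-Ts, 175 rose (9.86%) and 141 fell (7.95%). Those of divergent CUTs rose in 10 and fell in 64 of 470. By the definition of divergent, such a window reaches the start of the coding partner, so its count includes reads of that gene. Windows of CUTs that were neither divergent nor antisense rose in 48 and fell in 10 of 214.

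The change of a noncoding transcript and that of its coding partner were weakly related for divergent pairs and hardly for those classed as antisense. Across 470 divergent CUT pairs Pearson's r of the log2 changes was 0.30, and across 419 divergent SUT pairs it was 0.20. Across 241 antisense CUT pairs it was 0.01, and across 220 antisense SUT pairs -0.07. These values describe transcripts measured in the same libraries, and reads of overlapping transcripts were told apart by strand alone. Of the 66 antisense SUTs that rose, 18 lay across a gene that rose, 45 across a gene that did not pass the test and 3 across a gene that fell. For the antisense SUTs that did not pass, these counts were 28, 110 and 8, and 4 of the 8 that fell lay across a gene that rose.

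Single noncoding transcripts changed several-fold. CUT718, antisense to TFA1 (minus strand of chromosome XI between 385824 and 386280), had 13.1 and 12.8 RPKM in cac1, against 2.38 and 2.07 RPKM in wild type. CUT012, antisense to PDX3 (plus strand of chromosome II between 306696 and 307104), had 53.8 and 52.1 RPKM in cac1, against 16.0 and 14.8 RPKM in wild type. CUT718 rose by 2.57 (SE 0.45) and CUT012 by 1.80 (SE 0.20), while TFA1 and PDX3 changed by -0.11 and 0.03 (edgeR adjusted p = 0.389 and 0.83). CUT308, neither divergent from nor antisense to a coding gene, rose by 2.06 (SE 0.31). CUT634, divergent from the nicotinic acid permease gene TNA1, rose by 1.74 (SE 0.38), and TNA1 rose by 0.58 (SE 0.07). CUT917 rose by 1.66 (SE 0.38) and CUT565 by 1.43 (SE 0.24). Leaving out wild-type replicate 2 gave edgeR adjusted p-values of 0.12 for CUT718, 0.0549 for CUT308, 0.332 for CUT634, 0.0892 for CUT917 and 0.0624 for CUT565. Without cac1 replicate 2 it was 0.0512 for CUT634, 0.0728 for CUT917 and 0.0551 for CUT565, and DESeq2 gave 0.0555 for CUT634.

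The 6 CUTs named for the largest falls were all divergent from coding genes. CUT049, 308 bp from the start of WHI4 (plus strand of chromosome IV between 57033 and 57337), had 50.9 and 61.1 RPKM in cac1, against 130.4 and 157.6 RPKM in wild type. CUT268, 164 bp from the start of NEJ1 (plus strand of chromosome XII between 675697 and 676465), had 15.6 and 13.9 RPKM in cac1, against 33.9 and 39.4 RPKM in wild type. They fell by 1.37 (SE 0.16) and 1.38 (SE 0.18), and WHI4 and NEJ1 fell with them, by 0.30 (SE 0.08, edgeR adjusted p = 0.0266) and 0.79 (SE 0.13, edgeR adjusted p = 0.00326). CUT049 also lay in part across HBT1 (minus strand of chromosome IV between 57149 and 60469). HBT1 rose by 0.85 (SE 0.11, edgeR adjusted p = 0.000849). CUT743 fell by 2.20 (SE 0.45), CUT812 by 1.04 (SE 0.23), CUT881 by 1.03 (SE 0.22) and CUT324 by 1.08 (SE 0.32), and their partners YLR257W, AVT4, CET1 and POP1 did not pass the threshold. WHI4 had an edgeR adjusted p of 0.227 without wild-type replicate 2, 0.06 without cac1 replicate 1, 0.116 without cac1 replicate 2 and 0.0521 in a fit of the 4 libraries, and 0.0728 by DESeq2. NEJ1 had 0.0512 without wild-type replicate 2. CUT743 had 0.103 without cac1 replicate 2. CUT812 had 0.18 without wild-type replicate 2, 0.0516 without cac1 replicate 1 and 0.0507 without cac1 replicate 2, and CUT881 had 0.0764 without wild-type replicate 2 and 0.07 without cac1 replicate 2. CUT324 lost its call without each of the 4 libraries (0.0559 to 0.357), in the 4-library fit and by DESeq2.

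The SUTs named for their rise had few reads in wild type. SUT364, divergent from DBP5, had 6.24 and 15.0 RPKM in cac1 and 1.70 and 1.26 RPKM in wild type. Its log2 change was 3.09 (SE 0.60), from 27 reads in cac1 and 4 in wild type (ratio 9.21, exact 95% counting interval 3.21 to 36.2). SUT364 (plus strand of chromosome XV between 416186 and 416506) also lay mostly across STD1 (minus strand, between 416198 and 417838). STD1 changed by -0.32 (SE 0.09, edgeR adjusted p = 0.0327), and DBP5 by -0.06 (edgeR adjusted p = 0.652). SUT620, divergent from RPL17B, had 6.78 and 9.64 RPKM in cac1 and 2.95 and 0.731 RPKM in wild type. It had 22 reads in cac1 and 4 in wild type (ratio 7.50, interval 2.55 to 29.95). SUT649, beside the joined feature of YJR120W and ATP2, had 26 reads in cac1 and 2 in wild type, a pooled ratio of 17.7 with an exact 95% counting interval of 4.44 to 154.2. SUT561, antisense to the joined feature of LSB1 and YGR137W, had 14 reads in cac1 and 2 in wild type (ratio 9.55, interval 2.19 to 86.6). SUT478, antisense to HEM1, had 13 reads in cac1 and 2 in wild type (ratio 8.87, interval 2.01 to 80.9). SUT450 had 4 reads in cac1 and none in wild type, at least 1.82-fold higher against a floor of 3 reads over the group. Each of these 6 lost its call without wild-type replicate 2, with edgeR adjusted p-values of 0.174 for SUT364, 0.403 for SUT620, 0.133 for SUT649, 0.143 for SUT561, 0.12 for SUT478 and 0.43 for SUT450, and all but SUT649 lost it without cac1 replicate 2. SUT450 lost it in each leave-one-out, and SUT561 also without cac1 replicate 1 (0.053).

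SUT041 went down while the gene it crosses went up. SUT041 (plus strand of chromosome IV between 59129 and 60697), antisense to HBT1, had 3.82 and 2.26 RPKM in cac1, against 19.0 and 11.8 RPKM in wild type, and fell by 2.36 (SE 0.36, edgeR adjusted p = 0.00185). HBT1 had 17.6 and 17.0 RPKM in cac1, against 8.67 and 9.97 RPKM in wild type, and rose by 0.85 (SE 0.11, edgeR adjusted p = 0.000849). Both calls held in each alternative tried on them. SUT721 and SUT728 fell by 1.10 (SE 0.13) and 0.83 (SE 0.12). SUT365, divergent from STD1, fell by 0.94 (SE 0.15), SUT109 by 0.84 (SE 0.14) and SUT577 by 1.30 (SE 0.39); without wild-type replicate 2 their edgeR adjusted p-values were 0.0847, 0.0799 and 0.255, and SUT577 lost its call without each of the 4 libraries (0.0504 to 0.387) and by DESeq2. SUT129, divergent from PPT1, had 113.9 and 102.0 RPKM in cac1 and 138.1 and 122.8 RPKM in wild type, a log2 change of -0.27 that missed the threshold (SE 0.13, edgeR adjusted p = 0.193).

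Transcription on the opposite strand at coding genes showed many rises and fewer falls. Of 5165 ORF-T windows tested 788 rose (15.3%) and 228 fell (4.41%), with a median log2 change of 0.14. By level, in the lowest of 5 classes of windows by mean level 253 of 1030 rose and 1 fell, and in the highest 23 of 1034 rose and 116 fell. The median window of the lowest class was at 6.98 and 6.26 RPKM in cac1, against 3.05 and 2.69 RPKM in wild type, without overlap. Among windows of the coding table, 8 and 6 were empty in cac1, against 126 and 19 in wild type. Thinned to the reads of the smallest library, 9.24 and 33.9 would be expected in cac1, against 126 and 210 in wild type. When wild-type replicate 2 was left out, 67 windows rose and 12 fell; without cac1 replicate 1 the counts were 431 and 88, without cac1 replicate 2 they were 379 and 117, and without wild-type replicate 1, 137 fell. Each of the 788 and the 228 kept its direction when any 1 of the 4 libraries was left out. These windows were chosen by the fit of all libraries, and each refit shares most of them, so this is no independent check.

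Rises made up a larger share of windows where the upstream neighbour was tandem. Where the upstream neighbour runs in the same direction (tandem) and nothing is annotated on the opposite strand, 454 of 1852 windows rose and 36 fell, with a median log2 change of 0.56. Where the neighbour is transcribed away from the gene (divergent) and nothing is annotated in the window, 193 of 2263 rose and 116 fell, with a median of -0.0022. The median tandem window was at 27.1 and 25.6 RPKM in cac1, against 17.6 and 17.0 RPKM in wild type. The median divergent window was at 90.85 and 90.14 RPKM in cac1, against 95.6 and 95.8 RPKM in wild type. Per 100 reads on the genes themselves, the tandem windows held 8.44 and 7.75 reads in cac1, above the 6.65 and 6.46 reads of both wild-type libraries. The divergent windows held 29.1 and 29.0 reads in cac1, below the 31.1 and 32.4 reads of both wild-type libraries. Levels differ between the arrangements as rises do, and the part of the level was not tested. Leaving out wild-type replicate 2, 42 tandem windows rose with a median of 0.49 over all of them; without cac1 replicate 1, 250 rose, and without cac1 replicate 2, 222 rose. DESeq2 called 136 risen and 4 fallen tandem windows, and 48 risen and 30 fallen divergent ones. Scaled to total ORF-T reads alone, 69 divergent windows fell and their median was 0.0569.

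**Figure D4:**
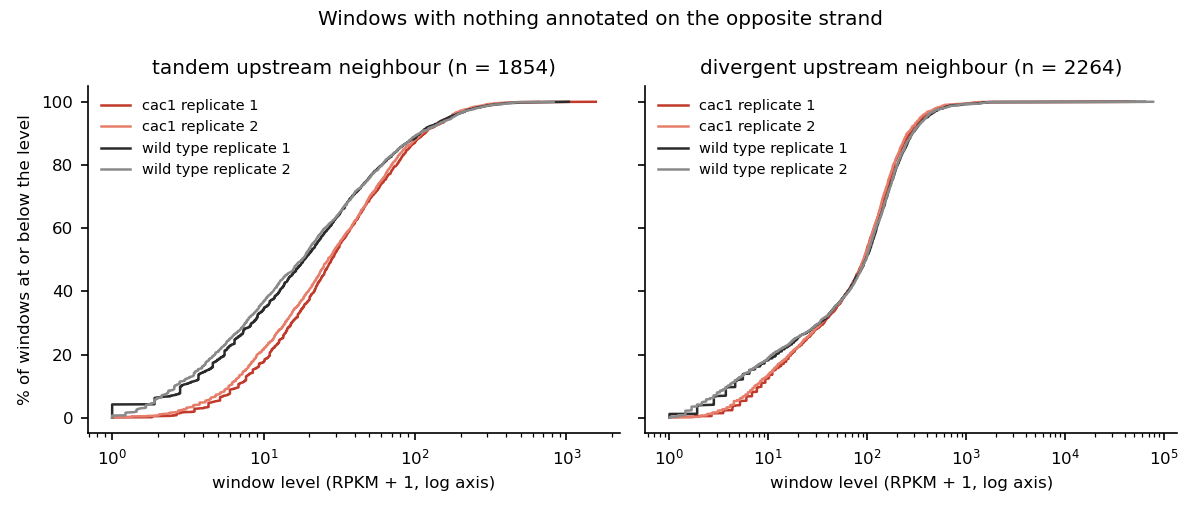
Each curve gives, for 1 library, the percent of windows at or below a level (RPKM + 1, log axis), for windows with nothing annotated on the opposite strand. At tandem genes (left) both cac1 curves lie to the right of both wild-type curves over most of the range, with medians of 27.1 and 25.6 RPKM in cac1 and 17.6 and 17.0 RPKM in wild type; at divergent genes (right) the curves lie close, with medians of 90.85 and 90.14 RPKM in cac1 and 95.57 and 95.75 RPKM in wild type.

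Annotation in the window went with fewer rises at tandem genes. Where a CUT or SUT overlaps the tandem window, 85 of 571 rose and 43 fell, with a median of 0.09. At divergent genes the order was the reverse. There 43 of 345 windows with a CUT or SUT rose (12.5%), against 193 of 2263 with nothing annotated (8.53%). The part of the window level in these shares was not tested. The rises at unannotated tandem genes were seen at every gene level and window width: 74 of 369 windows rose in the lowest of 5 classes of genes by level and 102 of 371 in the highest, and 56 of 219 rose among windows under 200 bp and 86 of 377 at the full 600 bp. The genes themselves showed no such excess of rises: 162 of 1855 rose and 153 fell, with a median of 0.01. Of the 454 tandem windows that rose, 53 stood at genes that rose, 42 at genes that fell and 359 at genes that did not pass the test.

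**Figure D5:**
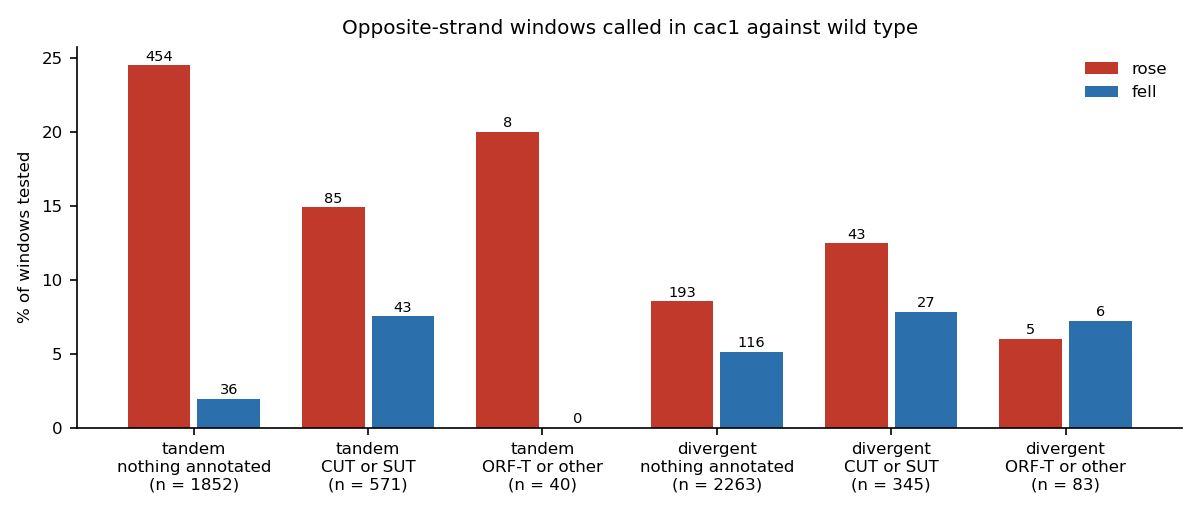
Bars give the percent of tested opposite-strand windows that rose (red) and fell (blue) by the direction of the upstream neighbour and by what is annotated in the window, with the number that rose or fell above each bar. Tandem genes with nothing annotated have the highest bar, 454 of 1852, and divergent genes with nothing annotated have 193 of 2263.

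Among windows with a mean of at least 5 RPKM, those that rose most had very few reads in wild type. Opposite RPL22A, a ribosomal protein gene (YLR061W, plus strand of chromosome XII between 263137 and 264065), the window had 28.7 and 33.6 RPKM in cac1, against 3.12 and 1.16 RPKM in wild type. Opposite the joined feature of ISC10 and SLO1 (minus strand of chromosome V between 549701 and 551157) it had 15.8 and 15.6 RPKM in cac1, against 0.905 and 0.673 RPKM in wild type. These windows rose by 4.27 (SE 0.43, edgeR adjusted p = 0.00012) and 4.36 (SE 0.41, edgeR adjusted p = 0.00012). Opposite HOS2, a histone deacetylase gene, 46 reads fell in the window in cac1 and 3 in wild type, a pooled ratio of 20.9 with an exact 95% counting interval of 6.72 to 105.1. RPL13B had 44 window reads in cac1 and 3 in wild type (ratio 20.01, interval 6.41 to 100.7), as did SHC1. The joined feature of YPR146C and YPR147C had 24 in cac1 and 1 in wild type (ratio 32.7, interval 5.34 to 1346). Leave-out of wild-type replicate 2 gave edgeR adjusted p-values of 0.231 for SHC1 and 0.107 for the YPR146C feature.

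The 6 windows named for their fall lay opposite WHI4, NEJ1, IME1, ARG3, YDR379C-A and TOS4. The windows of WHI4 and NEJ1, which overlap CUT049 and CUT268 and share reads with them, fell by 1.39 (SE 0.16) and 1.29 (SE 0.19). That of TOS4 had 92.2 and 100.8 RPKM in cac1, against 182.3 and 205.1 RPKM in wild type, and fell by 1.01 (SE 0.13, edgeR adjusted p = 0.000572) with nothing annotated in it. The windows of IME1, ARG3 and YDR379C-A fell by 1.27, 1.06 and 1.04. Without wild-type replicate 2 the edgeR adjusted p was 0.0513 for NEJ1, 0.118 for IME1, 0.0688 for ARG3 and 0.141 for YDR379C-A, and DESeq2 gave 0.0601 for ARG3. The last was at 0.258 without cac1 replicate 2 and 0.0692 without wild-type replicate 1, and IME1 lost its call without each of the 4 libraries.

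Measured against the gene in 1 fit, the opposite strand gained at 704 of 5165 ORF-Ts (13.6%) and lost at 152 (2.94%), with a median relative log2 change of 0.11. Among 131 cytosolic ribosomal protein genes 66 gained, with a median of 1.01, and 41 of their 131 windows rose by themselves and 4 fell, with a median of 0.72. By gene level, 74 of 1031 ORF-Ts gained in the lowest of 5 classes. In the highest class 233 of 1034 gained, with a median of 0.30. The part of the level in the gains of the ribosomal protein genes was not tested. At RPL22A the relative change was 4.50 (SE 0.41), from a window that rose by 4.27 and a gene that changed by -0.22 (edgeR adjusted p = 0.074). At RPL13B the gene had 642.5 and 633.8 RPKM in cac1, against 797.2 and 742.9 RPKM in wild type, while the window had 9.98 and 11.1 RPKM in cac1, against 0 and 0.673 RPKM in wild type. RPL26B and RPL36A gained 2.60 and 2.17. The totals without wild-type replicate 2 were 37 gains and 1 loss, with 13 gains and 7 risen windows among the ribosomal protein genes; without cac1 replicate 1 there were 401 gains and 55 losses, without cac1 replicate 2 there were 333 and 59, and without wild-type replicate 1 there were 84 losses.

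The 4 named losses stood at genes that rose beside a window that fell slightly or missed the threshold. IME4, which encodes an RNA methyltransferase of meiosis, had 7.61 and 4.35 RPKM in cac1, against 0.828 and 0.342 RPKM in wild type. Its window, over an annotated feature of the opposite strand, had 161.0 and 176.6 RPKM in cac1, against 234.2 and 221.9 RPKM in wild type. IME4 rose by 3.59 and its window fell by 0.41 (edgeR adjusted p = 0.0448), a relative change of -3.97 (SE 0.50, edgeR adjusted p = 0.00115). POT1, the thiolase of fatty acid oxidation, PEX18, a peroxisomal import factor, and YNR064C had relative changes of -3.29, -2.73 and -3.23, with window changes of 0.11, 0.37 and -0.02 that missed the threshold. The edgeR adjusted p of the relative change without wild-type replicate 2 was 0.0977 for IME4, 0.319 for POT1, 0.139 for PEX18 and 0.124 for YNR064C. It was 0.0527 for YNR064C without cac1 replicate 2, and PEX18 lost its call without each of the 4 libraries.

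Set directly against the other CAF-I mutants, cac1 differed at few features. Against cac2, 3 of 7271 features were higher in cac1 (0.0413%) and 1 was lower (0.0138%). The 1 that was lower was RLF2, and CAC2 was among the 3 that were higher. Against cac3, 49 were higher (0.674%), MSI1 among them, and 50 were lower (0.688%), RLF2 among them. PHO84, at 21.4 and 26.9 RPKM in cac1, reached 29.7 and 31.2 RPKM in the cac2 libraries, while the cac3 libraries had 133.2 and 131.1 RPKM; cac1 was below cac3 by a log2 difference of -2.42 (SE 0.10, edgeR adjusted p = 3.51e-07), and the difference from cac2 was -0.30 (SE 0.11, edgeR adjusted p = 0.5). URA1 and MDH2 were also lower in cac1 than in cac3, by log2 differences of -0.72 and -0.52 (edgeR adjusted p = 0.000306 and 0.00122). The tandem windows with nothing annotated held 8.44 and 7.75 reads per 100 gene reads in cac1, against 8.66 and 8.41 reads for cac2 and 7.21 reads for each cac3 library. Of 5494 windows, 1 was higher in cac1 than in cac2 (0.0182%) and 1 was lower in cac1 than in cac3 (0.0182%).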

How the data were processed

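NET-seq libraries were prepared by a published protocol, per the labels. The authors deposited whole-number counts of reads per feature; the window's estimated count, also from the authors, has 0.5 for an empty window, taken as 0 here. No aligner, genome build or read filter is stated in the labels or headers, and coordinates are those of the authors' tables. The deposited RPKM, ratio and natural log columns, and the same densities deposited by the authors as a signal at a millionth of that scale, were not used; RPKM was recomputed from the counts. Features with at least 1 RPKM in at least 2 libraries entered (7271 features, 5494 coding-table windows, 4 untested ones left out). Scaling used edgeR's trimmed mean of M-values, computed on ORF-Ts. One edgeR 4.0.16 quasi-likelihood fit in R 4.3.3 held all 8 libraries, with Benjamini-Hochberg adjustment; window against gene was the interaction of count kind with group. SE is the absolute log2 change over the root of the quasi-likelihood F. The scripts were tested on simulated data. Scaling, DESeq2 1.42.0, filter, 4-library, replicate block and leave-one-out alternatives were run.

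The strand of the window was inferred: its reads ranked with those expected from annotated opposite-strand features (Spearman 0.54 over 1047 windows) and not with same-strand ones (0.04 over 673). Transcripts were called divergent when 5′ ends on opposite strands pointed apart within 500 bp of an ORF-T, with up to 100 bp of overlap. Of the rest, those with at least 50% of their length across an ORF-T of the opposite strand were called antisense. A divergent transcript that also lay across another ORF-T was thus not counted as antisense. Members and gene lists were chosen with earlier results of these data known. Named were RLF2 with its neighbours and the other subunits, PPT1 and SUT129, and the features with the largest change past the threshold (mean RPKM of at least 5, both cac1 libraries on one side of both wild-type libraries; for window against gene, the side of their ratio): 12 ORF-Ts, 6 CUTs, 6 SUTs, 6 windows and 4 relative changes each way. Coding partners and up to 5 called members per list were added. Each list's counts stand in the plot of the lists. They are counts of ORF-T features, and a gene with several features was counted once for each. The biological coefficient of variation was 8.13% for features and 13.3% for windows. Counting intervals cover counting error only.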

Additional observations from a re-analysis of the deposited data

How the results depend on the processing

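Left out in turn, the 4 libraries gave 105 to 380 ORF-Ts rising and 68 to 315 falling, 5 to 58 and 15 to 71 CUTs, 27 to 108 and 8 to 33 SUTs, 67 to 603 and 12 to 137 windows, and 37 to 556 and 1 to 84 windows relative to their gene; the lowest count in each case was without wild-type replicate 2, the deepest library. DESeq2 called fewer: 273 and 207 ORF-Ts, 42 and 46 CUTs, 74 and 22 SUTs, and 215 and 57 windows. A fit of the 4 libraries alone moved the rising CUTs to 55 and the relative falls to 81, and scaling to total ORF-T reads moved the falling ORF-Ts to 222 and the falling windows to 150. That scaling also moved the log2 change of the median level to 0.0716 for ORF-Ts, -0.0219 for CUTs, 0.3136 for SUTs and -0.0237 for divergent unannotated windows. With the replicate block 766 ORF-Ts rose and 631 fell, 148 CUTs, 76 SUTs and 442 windows fell, and 369 relative changes fell; replicate differences of cac1 and wild type correlated at 0.289, and those of all 6 pairs of groups at 0.220 to 0.368. All were positive, but with 2 numbers per group, and no label that ties a number to a day or batch, the numbers were not taken as pairs. The block gave CAC2 an edgeR adjusted p of 0.0163 and SUT450 0.0588. DESeq2 and no scaling were not run for the relative change.

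Over the leave-one-outs, 7 features that missed the threshold changed sign: PPT1 (-0.0095 to 0.1909), PDX3 (-0.0017 to 0.0438), AVT4 (-0.1421 to 0.1659), CET1 (-0.1805 to 0.1185), GDT1 (-0.1775 to 0.0283), DBP5 (-0.1396 to 0.0091) and TIF6 (-0.1129 to 0.0386). Of the recomputed values of named features and windows 560 kept their side of the threshold and direction, 107 lost the call, 2 gained one and 9 changed sign. Some calls rest on few reads: SUT450 rests on 4 reads in cac1 and none in wild type, and MF(ALPHA)2 on 16 in cac1 and 3 in wild type. The cause of these shifts was not tested.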
